A study of Mus musculus with 9 samples.

Results

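The genes described here are the fibroblast growth factor (FGF) ligand genes Fgf4, Fgf5, Fgf8 and Fgf15 and the FGF receptor genes Fgfr1, Fgfr2, Fgfr3 and Fgfr4, 8 of the 19938 genes measured. They were chosen by name, with earlier results of these data known. Each is the single gene symbol of a probe set on the array, and each had 1 such probe set. Mouse pluripotent cells were measured on 9 single-colour microarrays in 3 cultures with 3 arrays each. Epiblast stem cells (EpiSCs) of strain CD1, which correspond to the primed epiblast of the later embryo, were kept either in the GSK3 inhibitor CHIR99021 with the tankyrase inhibitor XAV939 or in the growth factors FGF2 and activin. Embryonic stem cells (ESCs) of strain 129, the naive cells of the blastocyst stage, were kept in 2i, the usual name for CHIR99021 with the MEK inhibitor PD0325901. The labels list 3 µM CHIR99021, 2 µM XAV939, 10 ng/ml FGF2, 10 ng/ml activin and 1 µM PD0325901 for all samples together, and 10% serum in the medium of every group. Strain, cell type and the agents of the media, PD0325901 among them, therefore cannot be told apart in a comparison with ESCs. Both EpiSC cultures share strain and cell type, but by their names they differ in CHIR99021, XAV939, FGF2 and activin at once. Every sample carries the tissue label of an embryonic stem cell, and the EpiSC groups are known from their titles and source names. Nothing in the labels ties the 3 arrays of a group to separate cultures, and the p-values reflect array-to-array spread only, which may be technical.

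FGF ligands bind receptor tyrosine kinases together with heparan sulfate, and the active receptor signals through adaptor proteins and RAS to the kinases RAF, MEK and ERK. In the early mouse embryo and in ESCs, FGF4 made by the pluripotent cells themselves is the main FGF signal and moves cells out of the naive state, and FGFR1 and FGFR2 receive it. PD0325901 in 2i blocks MEK, which lies below the receptors. Whether that block changes the mRNA of ligand and receptor genes was not tested here. FGF2, the factor added to EpiSC medium, acts on the same receptors.

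Markers of pluripotent cells were read as a check of the labels. The mean log2 expression of 5 general pluripotency genes, among them Pou5f1, Nanog and Sox2, was 10.93 to 11.00 on the CHIR/XAV EpiSC arrays, 10.99 to 11.04 on the FGF2/activin EpiSC arrays and 11.22 to 11.30 on the ESC arrays. All 8 naive markers were lower in both EpiSC groups than in ESCs, and among 7 primed epiblast markers CHIR/XAV EpiSCs had 6 higher and 1 lower, while FGF2/activin EpiSCs had 7 higher. Array medians lay between 5.57 and 5.65, and arrays of one group correlated at 0.996 to 0.998 across genes. All values below are log2 expression, on which 1 unit is a 2-fold step; levels of different probe sets cannot be set against each other, so each gene is compared only with itself.

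Fgf4, Fgf5 and Fgfr2 differed by 2-fold or more between ESCs and at least one EpiSC culture and are among the 5 members with a start-site window in RefSeq's promoters (build GRCm38.p6). Their 300-base windows, from 250 bases before the start to 50 after it, are shown because these genes moved in different directions. Capitals mark the GC box GGGCGG, the CCAAT box CCAAT and the TATA box TATAAA, searched on both strands; these 3 motifs were added after others had given no match in these windows, and no motifs overlap.
Fgf4, chr7:144861136-144861435, plus strand: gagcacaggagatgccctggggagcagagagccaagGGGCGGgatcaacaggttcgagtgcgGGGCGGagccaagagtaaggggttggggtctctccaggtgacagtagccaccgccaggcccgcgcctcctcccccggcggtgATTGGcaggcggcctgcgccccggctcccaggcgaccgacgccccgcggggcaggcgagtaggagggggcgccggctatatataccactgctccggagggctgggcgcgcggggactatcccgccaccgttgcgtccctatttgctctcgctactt
Fgf5, chr5:98253934-98254233, plus strand: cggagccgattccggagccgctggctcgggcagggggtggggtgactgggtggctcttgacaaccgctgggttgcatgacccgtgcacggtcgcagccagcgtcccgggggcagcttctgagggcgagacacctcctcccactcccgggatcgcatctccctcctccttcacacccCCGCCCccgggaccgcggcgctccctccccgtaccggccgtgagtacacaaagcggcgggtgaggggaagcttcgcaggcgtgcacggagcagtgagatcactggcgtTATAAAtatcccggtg
Fgfr2, chr7:130266759-130267058, minus strand: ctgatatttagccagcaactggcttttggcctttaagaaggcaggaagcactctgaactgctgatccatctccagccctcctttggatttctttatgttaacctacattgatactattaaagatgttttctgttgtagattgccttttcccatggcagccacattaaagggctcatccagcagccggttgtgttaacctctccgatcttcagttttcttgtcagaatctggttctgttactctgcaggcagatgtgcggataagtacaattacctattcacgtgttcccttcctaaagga

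The Fgf4 and Fgf5 windows were rich in CpG dinucleotides, with 28 and 29 CpGs and a GC content of 69.7% and 68.3%, whereas the Fgfr2 window held 4 CpGs at a GC content of 43.7%. The median of 32851 windows was 7 CpGs, and 14.2% of windows had at least 28. Fgf4 had 2 GC boxes, 214 and 188 bases before the start, and 1 CCAAT box on the opposite strand 106 bases before it. Fgf5 had 1 GC box on the opposite strand, 74 bases before the start. Its only match to the letters TATAAA lay 34 bases after the start, not before it. The Fgf4 window had no TATAAA, but before its start it holds the letters TATATATA, which were not searched. GC boxes occurred in 35.7% of all windows, CCAAT boxes in 37.4% and TATA boxes in 13.6%, and none of these 3 motifs was in the Fgfr2 window. The octamer ATGCAAAT (1.74% of windows), the TCF/LEF letters CTTTGAT (3.73%), the ETS letters CCGGAAG (8.86%), the OTX letters GGATTA (7.06%) and the AP-1 letters TGANTCA (7.81%) were in none of the windows of Fgf4, Fgf5, Fgfr2, Fgfr3 and Fgfr4. Fgf8, Fgf15 and Fgfr1 are named only.

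Fgf5 was the gene of the set with the largest difference, about 12-fold higher in both EpiSC cultures than in ESCs. Fgf8 was also higher in both, Fgf15 was higher in CHIR/XAV EpiSCs, and Fgf4 was lower in both. Among the receptors, Fgfr2 was lower in both EpiSC cultures, and Fgfr1 was higher in FGF2/activin EpiSCs. Against ESCs, limma called 6 of the 8 genes in CHIR/XAV EpiSCs, 4 higher and 2 lower, where 46.7% of all genes were called (24.7% higher and 22.1% lower). In FGF2/activin EpiSCs it called 5, 3 higher and 2 lower, where 61.3% of all genes were called (27.8% higher and 33.5% lower). In FGF2/activin EpiSCs the members were called about as often as all genes. The median absolute difference of the 8 genes was 0.87 in CHIR/XAV EpiSCs and 0.86 in FGF2/activin EpiSCs, against 0.19 and 0.26 over all genes. The median signed difference was 0.17 and 0.13, against -0.03 and -0.08 over all genes. At 2-fold or more, 2 members were called in CHIR/XAV EpiSCs, where 8.32% of all genes were, and 4 in FGF2/activin EpiSCs, where 10.1% were. Both comparisons use the same 3 ESC arrays.

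**Figure D1:**
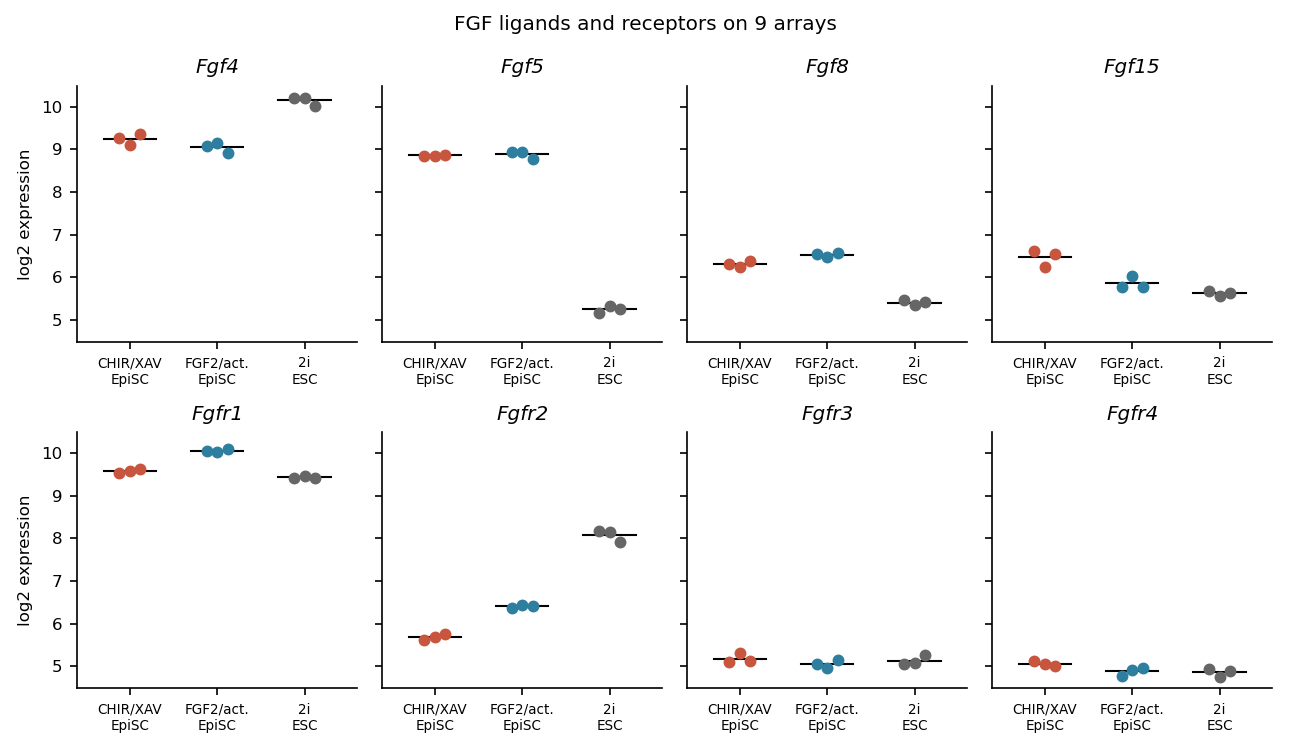
Log2 expression of the 8 genes on each of the 9 arrays; points are arrays, horizontal lines are means of 3 arrays, and all panels share 1 axis in log2 units. Fgf5 lies at 8.78 to 8.94 on the 6 EpiSC arrays and at 5.17 to 5.32 on the 3 ESC arrays, and Fgfr2 has its highest values, 7.92 to 8.17, on the ESC arrays.

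FGF5 is a secreted ligand long used as a marker of the epiblast after implantation. Fgf5 had 8.85, 8.85 and 8.87 in CHIR/XAV EpiSCs, 8.94, 8.93 and 8.78 in FGF2/activin EpiSCs and 5.17, 5.32 and 5.26 in ESCs. All 6 EpiSC arrays stood far above all 3 ESC arrays. The gene rose by 3.61 (SE 0.07, adjusted p = 3.58e-14, limma with Benjamini-Hochberg adjustment), or 12.2-fold, in CHIR/XAV EpiSCs and by 3.63 (SE 0.07, adjusted p = 2.15e-14), or 12.4-fold, in FGF2/activin EpiSCs. By signed difference these were the 26th and 54th largest rises among 19938 genes. The EpiSC cultures overlapped: CHIR/XAV minus FGF2/activin was -0.02, with a 95% interval of -0.17 to 0.12 (adjusted p = 0.799).

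FGF4 is the autocrine ligand of naive pluripotent cells. Fgf4 had 9.26, 9.11 and 9.35 in CHIR/XAV EpiSCs, 9.07, 9.15 and 8.92 in FGF2/activin EpiSCs and 10.2, 10.21 and 10.02 in ESCs. The ESC arrays were all above the EpiSC arrays, while the EpiSC cultures overlapped. Fgf4 fell by 0.90 (SE 0.09, adjusted p = 6.3e-07), or 1.87-fold, in CHIR/XAV EpiSCs and fell by 1.10 (SE 0.09, adjusted p = 6.35e-08), or 2.14-fold, in FGF2/activin EpiSCs. CHIR/XAV minus FGF2/activin was 0.19 for Fgf4 (95% interval 0.01 to 0.38, adjusted p = 0.0835). It passed the threshold with trend and robust variance (adjusted p = 0.0392), after quantile normalization, where it was 0.28 (adjusted p = 0.014), and without CHIR/XAV EpiSC replicate 2, where it was 0.26 (adjusted p = 0.042). It was 0.13 without FGF2/activin EpiSC replicate 3 (adjusted p = 0.271) and 0.14 without CHIR/XAV EpiSC replicate 3 (0.24). In these bulk samples, fewer expressing cells and less RNA per cell cannot be told apart.

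FGF8 is a ligand of the gastrulating embryo, made in the epiblast and primitive streak. Fgf8 had 6.30, 6.23 and 6.39 in CHIR/XAV EpiSCs, 6.55, 6.47 and 6.56 in FGF2/activin EpiSCs and 5.46, 5.34 and 5.41 in ESCs. The 3 cultures formed 3 separate levels, with ESCs lowest and FGF2/activin EpiSCs highest. Fgf8 rose by 0.91 (SE 0.07, adjusted p = 5.08e-08) in CHIR/XAV EpiSCs and by 1.12 (SE 0.07, adjusted p = 3.77e-09) in FGF2/activin EpiSCs against ESCs. CHIR/XAV minus FGF2/activin was -0.22 for Fgf8 (SE 0.07, adjusted p = 0.0195). That call was lost without CHIR/XAV EpiSC replicate 2 (adjusted p = 0.0839), without FGF2/activin EpiSC replicate 1 (0.0653) or replicate 3 (0.0572), and after quantile normalization (0.0563). The mean of 7 primitive streak and mesoderm markers ran in the same order, at 5.52 to 5.63 on the CHIR/XAV EpiSC arrays, 5.84 to 5.93 on the FGF2/activin EpiSC arrays and 5.37 to 5.41 on the ESC arrays. In CHIR/XAV EpiSCs 2 of the 7 were higher and 2 lower than in ESCs, where 24.7% of all genes were higher and 22.1% lower. In FGF2/activin EpiSCs 2 of the 7 were higher and 3 lower, where 27.8% of all genes were higher and 33.5% lower. The rises were those of Eomes (1.03 and 2.32) and Wnt3 (0.97 and 2.36) in CHIR/XAV and FGF2/activin EpiSCs, and the falls those of Tbx6 and Evx1 in both and of Mixl1 (-0.41) in FGF2/activin EpiSCs. Of the 7 genes 4 were dim, with a mean under 5.28, the level under which the dimmest 40% of genes lie, and the part of such cells in the Fgf8 result was not tested.

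FGF15, the mouse counterpart of human FGF19, is an endocrine-type ligand that in the adult gut signals to the liver through FGFR4, and in the embryo it is made in the neural tube. Fgf15 had 6.62, 6.23 and 6.55 in CHIR/XAV EpiSCs, 5.77, 6.04 and 5.78 in FGF2/activin EpiSCs and 5.67, 5.55 and 5.64 in ESCs. Of the 4 ligands it alone was higher in CHIR/XAV EpiSCs than in FGF2/activin EpiSCs by a passed test. It rose by 0.84 (SE 0.10, adjusted p = 8.07e-06) in CHIR/XAV EpiSCs against ESCs and was higher by 0.60 (SE 0.10, adjusted p = 0.000281) in CHIR/XAV than in FGF2/activin EpiSCs. FGF2/activin EpiSCs differed from ESCs by 0.24 (SE 0.10, adjusted p = 0.0533), just short of the threshold. This last difference passed the threshold under 8 of 18 alternatives, among them median centring (0.30, adjusted p = 0.0228) and the fits without CHIR/XAV EpiSC replicate 1 (adjusted p = 0.0436) or replicate 2 (0.0231) or without FGF2/activin EpiSC replicate 1 (0.0498). Other arrays moved it the other way: it was 0.15 without FGF2/activin EpiSC replicate 2 (adjusted p = 0.229) and 0.21 without ESC replicate 2 (0.142). Fgf15 also had the widest spread of the 8 genes within a culture, with an SD of 0.21 over the 3 CHIR/XAV arrays. The mean of 5 neural markers was 7.03 to 7.15 on the CHIR/XAV EpiSC arrays, 7.01 to 7.10 on the FGF2/activin EpiSC arrays and 5.80 to 5.85 on the ESC arrays, with 3 higher and 1 lower than in ESCs in either EpiSC culture. Fabp7 ran in the same order as Fgf15, at 8.58 in CHIR/XAV EpiSCs, 7.05 in FGF2/activin EpiSCs and 5.32 in ESCs. It was 1.53 higher in CHIR/XAV than in FGF2/activin EpiSCs. In that comparison 1 of the 5 markers, Fabp7, was higher and 2 were lower, where 20.5% of all genes were higher and 21.1% lower. The lower ones were Nes (7.70 in CHIR/XAV against 8.98 in FGF2/activin EpiSCs) and Sox11 (8.39 against 8.89). Nes rose by 2.38 and 3.66 and Sox11 by 2.26 and 2.76 in CHIR/XAV and FGF2/activin EpiSCs, Pax6 stood at -1.75 and -1.95, and Sox1 was not called. The part of neural cells in the Fgf15 result was not tested.

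Fgf4 and Fgf15 are neighbours on chromosome 7, in a row of measured genes that runs Fadd, Ano1, Fgf3, Fgf4, Fgf15, LTO1, Ccnd1 and Tpcn2, and they changed in opposite directions in CHIR/XAV EpiSCs. Fgf3, the FGF gene on the other side of Fgf4, had group means of 4.97, 4.71 and 5.02 in CHIR/XAV EpiSCs, FGF2/activin EpiSCs and ESCs, all in the dim range under 5.28 that cannot be told from background without detection calls. Its differences from ESCs were -0.06 in CHIR/XAV EpiSCs (adjusted p = 0.605) and -0.31 in FGF2/activin EpiSCs (adjusted p = 0.00483). Ccnd1, which encodes cyclin D1, differed by 0.05 in CHIR/XAV EpiSCs (adjusted p = 0.501) and was higher by 0.34 in FGF2/activin EpiSCs (adjusted p = 0.000305). Around Fgf5, on chromosome 5, the nearest measured genes were Prdm8 and Cfap299, with group means of 4.38 to 5.31, in or near the dim range. Against ESCs they stood at -0.22 and 0.41 in CHIR/XAV EpiSCs, and at -0.39 and 0.10 in FGF2/activin EpiSCs. Antxr2, beyond Prdm8, was higher than in ESCs by 0.73 in CHIR/XAV EpiSCs (limma, adjusted p = 6.49e-06). In FGF2/activin EpiSCs it was higher by 1.57 (adjusted p = 1.32e-09). Gk2, beyond Antxr2, stood at -0.00081 and 0.03 in CHIR/XAV and FGF2/activin EpiSCs. On the other side 1700010H22Rik stood at -0.15 and -0.17, and Bmp3 at -0.04 and -0.26. These neighbours were taken by gene order, not by their values.

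**Figure D2:**
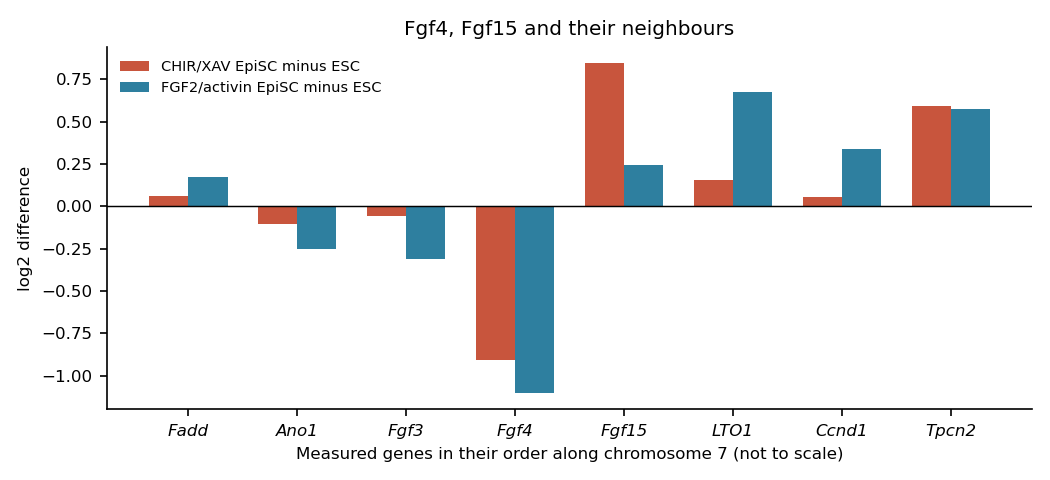
Log2 differences from ESCs in CHIR/XAV EpiSCs (red bars) and FGF2/activin EpiSCs (blue bars) for 8 neighbouring genes in their order along chromosome 7, with the bars starting at 0. Fgf4 lies below 0 in both (-0.90 and -1.10), and Fgf15 beside it lies above 0 (0.84 and 0.24).

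FGFR2 is a receptor tyrosine kinase of FGF4 in the blastocyst, known there for its role in primitive endoderm, the extraembryonic lineage that FGF signalling promotes. Fgfr2 had 5.63, 5.70 and 5.76 in CHIR/XAV EpiSCs, 6.38, 6.45 and 6.41 in FGF2/activin EpiSCs and 8.17, 8.16 and 7.92 in ESCs. The 3 cultures did not overlap, with ESCs highest and CHIR/XAV EpiSCs lowest. Fgfr2 fell by 2.39 (SE 0.08, adjusted p = 5.67e-12), or 5.24-fold, in CHIR/XAV EpiSCs and fell by 1.67 (SE 0.08, adjusted p = 2.01e-10), or 3.18-fold, in FGF2/activin EpiSCs. It was the 130th largest fall of 19938 genes in CHIR/XAV EpiSCs and the 285th in FGF2/activin EpiSCs. CHIR/XAV minus FGF2/activin was -0.72 for Fgfr2 (SE 0.08, adjusted p = 4.07e-06), or 1.65-fold lower. One probe set gives 1 value for the gene, so the splice forms with different ligand preferences are not told apart.

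Markers of other cell types that are rich in Fgfr2 were looked at beside it. The mean of 9 extraembryonic endoderm markers was 5.13 to 5.27 on the CHIR/XAV EpiSC arrays, 5.12 to 5.21 on the FGF2/activin EpiSC arrays and 5.08 to 5.14 on the ESC arrays. Against ESCs 1 of the 9 was higher and 2 were lower in CHIR/XAV EpiSCs, where 24.7% of all genes were higher and 22.1% lower. In FGF2/activin EpiSCs 2 of the 9 were higher and 5 lower, where 27.8% of all genes were higher and 33.5% lower. The median difference of the list was -0.04 in CHIR/XAV EpiSCs and -0.21 in FGF2/activin EpiSCs. Dab2 moved most, at 7.04 in CHIR/XAV EpiSCs, 7.09 in FGF2/activin EpiSCs and 5.52 in ESCs, and was higher in both. Gata4 was highest in ESCs, as Fgfr2 was, at 4.93 in CHIR/XAV EpiSCs, 4.71 in FGF2/activin EpiSCs and 5.25 in ESCs, and it was lower in both EpiSC cultures. Sox17 was at 4.61 in both EpiSC cultures and 4.84 in ESCs, and Gata6 at 5.49, 5.79 and 5.29 in CHIR/XAV EpiSCs, FGF2/activin EpiSCs and ESCs. Of the 9 genes 6, Gata4 and Sox17 among them, had a mean under 5.28, and the part of such cells in the Fgfr2 result was not tested. The mean of 7 trophoblast markers was 5.53 to 5.70 on the CHIR/XAV EpiSC arrays, 6.16 to 6.26 on the FGF2/activin EpiSC arrays and 5.93 to 5.99 on the ESC arrays. Within that list the differences from ESCs in CHIR/XAV and FGF2/activin EpiSCs were -2.98 and -1.78 for Tfap2c, -1.07 and -0.84 for Cdx2, 1.03 and 2.32 for Eomes, 0.51 and 1.11 for Hand1, and 0.34 and 1.07 for Gata3. In all, CHIR/XAV EpiSCs had 3 of the 7 higher and 2 lower than ESCs, and FGF2/activin EpiSCs had 3 higher and 3 lower. The shares of all genes are those given above for the extraembryonic endoderm markers. The part of trophoblast-type expression in the Fgfr2 result was not tested.

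FGFR1 is the receptor through which the epiblast and ESCs mainly read FGF4. Fgfr1 had 9.53, 9.58 and 9.63 in CHIR/XAV EpiSCs, 10.06, 10.03 and 10.09 in FGF2/activin EpiSCs and 9.42, 9.47 and 9.42 in ESCs. FGF2/activin EpiSCs were above both other cultures, which lay close together. Fgfr1 rose by 0.62 (SE 0.06, adjusted p = 9.03e-07), or 1.54-fold, in FGF2/activin EpiSCs against ESCs, and CHIR/XAV minus FGF2/activin was -0.48 (SE 0.06, adjusted p = 2.26e-05), or 1.40-fold lower. CHIR/XAV EpiSCs differed from ESCs by 0.14 (95% interval 0.01 to 0.27, adjusted p = 0.0806). That small difference passed the threshold without the dimmest 40% of genes (adjusted p = 0.0448), with trend and robust variance (0.0344) and after median centring (0.047), and it was 0.12 without CHIR/XAV EpiSC replicate 3 (adjusted p = 0.205). Fgfr1 and Fgfr2 thus were ordered differently across the cultures: Fgfr1 was highest in FGF2/activin EpiSCs and Fgfr2 in ESCs.

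FGFR3 and FGFR4 are the remaining receptor tyrosine kinases of the family. Fgfr3 had 5.11, 5.32 and 5.12 in CHIR/XAV EpiSCs, 5.06, 4.96 and 5.16 in FGF2/activin EpiSCs and 5.05, 5.07 and 5.27 in ESCs. Its 3 cultures overlapped and no comparison was called, with differences of 0.05 (95% interval -0.14 to 0.23) and -0.07 (-0.26 to 0.11) against ESCs and 0.12 (-0.06 to 0.31) between the EpiSC cultures. Fgfr4 had 5.13, 5.05 and 5 in CHIR/XAV EpiSCs, 4.78, 4.91 and 4.96 in FGF2/activin EpiSCs and 4.94, 4.76 and 4.89 in ESCs. Its difference of 0.20 between CHIR/XAV EpiSCs and ESCs passed the threshold narrowly (adjusted p = 0.0424) and lost it under 9 of 17 alternatives. It was 0.15 without ESC replicate 2 (adjusted p = 0.166), 0.21 without ESC replicate 3 (0.0632), 0.16 without CHIR/XAV EpiSC replicate 1 (0.127), 0.20 without CHIR/XAV EpiSC replicate 2 (0.0813) and 0.20 without FGF2/activin EpiSC replicate 2 (0.0533). Both genes had a mean over the 9 arrays below 5.28, and without detection calls such values cannot be told from background. The other 6 members lay above it.

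Between the primed cultures, CHIR/XAV against FGF2/activin, the design asks which FGF genes differ when cell type and strain are held. limma called 4 of the 8 members, Fgf15 higher and Fgf8, Fgfr1 and Fgfr2 lower in CHIR/XAV, where 41.6% of all genes were called (20.5% higher and 21.1% lower). None was called at 2-fold or more, where 4.11% of genes were. The median difference of the 8 was 0.05, as over all genes, and their median absolute difference was 0.21 against 0.17. The culture given FGF2 and activin as proteins had more Fgfr1 and Fgfr2 mRNA than CHIR/XAV EpiSCs, by 1.40-fold and 1.65-fold. These cultures differ in FGF2, activin, CHIR99021 and XAV939 at once, and the agents cannot be told apart here. Fgf2 itself, named after its values were seen, had 5.02, 4.91 and 5.01 in CHIR/XAV EpiSCs, 5, 4.81 and 4.75 in FGF2/activin EpiSCs and 5.17, 5.16 and 5.06 in ESCs, and it did not pass the test between the EpiSC cultures (adjusted p = 0.197).

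**Figure D3:**
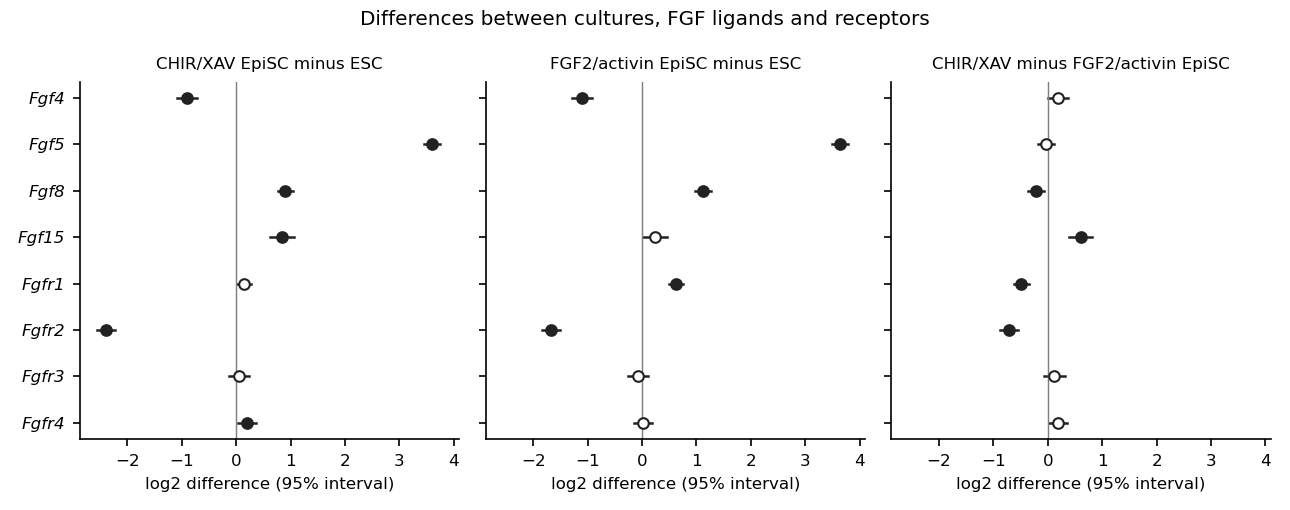
Log2 differences with 95% intervals from limma for the 8 genes in the 3 comparisons, in the direction each panel's title gives; filled points passed an adjusted p of 0.05 and open points did not. Fgf5 stands at 3.61 and 3.63 against ESCs and at -0.02 between the EpiSC cultures, and Fgfr2 lies below 0 in all 3 panels (-2.39, -1.67 and -0.72).

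For the whole set, the 3 arrays of one culture all lay above the 3 of the other for 7 of the 8 genes in CHIR/XAV EpiSCs against ESCs, where 53.2% of all genes did so. The count was 6 in FGF2/activin EpiSCs against ESCs, where 66.6% of all genes did, and 5 between the EpiSC cultures, where 52% did.

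Genes with the most similar course over the 9 arrays were found by distance, after each gene's own mean was taken off. For Fgf5 they were Tcp11x2, Foxi3 and Otx2, at distances of 0.23, 0.45 and 0.51 log2 units. Otx2, a homeobox factor of the primed epiblast, averaged 9.10 in CHIR/XAV EpiSCs, 9.41 in FGF2/activin EpiSCs and 5.45 in ESCs. For Fgfr2 the nearest were Ppic (0.27), Mras, a RAS-family GTPase gene (0.41), and Gss, the glutathione synthetase gene (0.48). For Fgf4 they were Rcor2 (0.21), a corepressor gene, Acly (0.22), the ATP citrate lyase gene, and Msh6 (0.22), a mismatch repair gene. For Fgf8 they were Arhgef16 (0.13), Zc4h2 (0.19) and Vamp7 (0.20). The other 4 genes had group means within 1 unit and were not matched.

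The rest of the pathway was read from lists by textbook role, without the 8 genes above. Feedback inhibitors and target transcription factors of FGF/ERK signalling rose nearly throughout in the EpiSCs: 14 of 17 rose and 1 fell in CHIR/XAV EpiSCs, and 15 rose and 1 fell in FGF2/activin EpiSCs, against ESCs, where 24.7% and 27.8% of all genes rose. The median difference was 1.48 and 2.09, against -0.03 and -0.08 over all genes. Dusp6, the ERK phosphatase gene, averaged 10.11 in CHIR/XAV EpiSCs, 10.24 in FGF2/activin EpiSCs and 5.99 in ESCs, and Spry4, a Sprouty inhibitor gene, 8.27, 9.06 and 4.75 in the same order. Myc rose by 2.74 and 2.66 in CHIR/XAV and FGF2/activin EpiSCs. Etv4, up by 2.42 in CHIR/XAV EpiSCs, averaged 7.35 there, 7.44 in FGF2/activin EpiSCs and 4.93 in ESCs. Phlda1, up by 3.07 in FGF2/activin EpiSCs, averaged 6.71, 8.62 and 5.55 in the same order. The 1 gene that fell in both, Etv5, an ETS factor gene named after its values were seen, stood at -0.55 in CHIR/XAV and -0.84 in FGF2/activin EpiSCs. Against FGF2/activin EpiSCs, 2 of the 17 were higher and 7 lower in CHIR/XAV EpiSCs. Over all genes 20.5% were higher and 21.1% lower in that comparison, and the median was 0.05, against -0.13 for the list. In the list Phlda1 stood at -1.91, Egr1 at -1.10, Spry4 at -0.79 and Ier3 at -0.73. The 2 higher, named after their values were seen, were Spry1 (0.27) and Etv5 (0.30).

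Heparan sulfate carriers and the enzymes that make and trim the chains rose more often than they fell in EpiSCs. Of 19 measured genes 10 rose and 2 fell in CHIR/XAV EpiSCs, and 15 rose (14 after quantile normalization) and 1 fell in FGF2/activin EpiSCs, with medians of 0.50 and 0.92. Over all genes 24.7% rose and 22.1% fell in CHIR/XAV EpiSCs, 27.8% rose and 33.5% fell in FGF2/activin EpiSCs, and the medians were -0.03 and -0.08. Sdc2, a syndecan gene, averaged 7.50 in CHIR/XAV EpiSCs, 7.65 in FGF2/activin EpiSCs and 5.46 in ESCs, and Gpc4, a glypican gene, 9.41, 10.09 and 8.05. Hs6st2, a 6-O-sulfotransferase gene, had 6.15, 6.5 and 6.45 in CHIR/XAV EpiSCs, 7.73, 7.80 and 7.68 in FGF2/activin EpiSCs and 4.91, 4.73 and 5.02 in ESCs, so that the 3 cultures did not overlap. Ext1, up by 1.33 in CHIR/XAV EpiSCs, averaged 10.03 there, 9.31 in FGF2/activin EpiSCs and 8.70 in ESCs. Sdc4, up by 1.95 in FGF2/activin EpiSCs, averaged 8.22, 9.64 and 7.69 in the same order. The falls, named after their values were seen, were Hs6st1 in both (-1.20 and -0.91) and the sulfatase gene Sulf2 in CHIR/XAV EpiSCs (-0.69). Against FGF2/activin EpiSCs, 13 of the 19 were lower in CHIR/XAV EpiSCs (12 after quantile normalization) and 2 higher. Over all genes 21.1% were lower and 20.5% higher in that comparison, and the median was 0.05, against -0.43 for the list. In the list Sdc4 stood at -1.42, Hs6st2 at -1.37, Hspg2 at -1.05 and Sulf2 at -1.02. The 2 higher, also named afterwards, were Ext1 (0.72) and Gpc3 (0.30). Ndst1 was not analysed here.

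**Figure D4:**
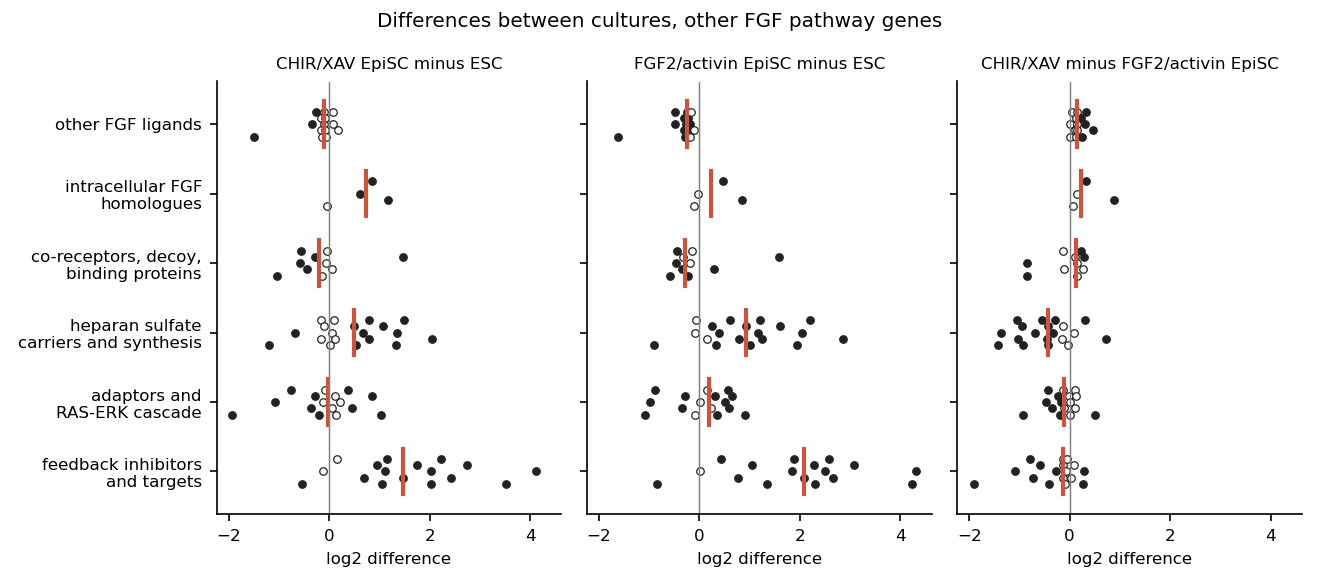
Log2 differences of other FGF pathway genes in 6 lists and 3 comparisons; each point is a gene, filled where it passed an adjusted p of 0.05, and red bars are list medians. Feedback inhibitors and targets have medians of 1.48 and 2.09 against ESCs, and the heparan sulfate genes have a median of -0.43 between the EpiSC cultures.

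Co-receptors, the decoy receptor and binding proteins fell more often than they rose against ESCs, as CHIR/XAV EpiSCs had 1 of 10 higher and 5 lower and FGF2/activin EpiSCs had 2 higher and 5 lower (1 higher after quantile normalization, and 4 lower after median centring). The medians were -0.21 and -0.28, against -0.03 and -0.08 over all genes. Over all genes 24.7% rose and 22.1% fell in CHIR/XAV EpiSCs, and 27.8% rose and 33.5% fell in FGF2/activin EpiSCs. In FGF2/activin EpiSCs falls thus outnumbered rises over all genes too. Fgfbp1, a secreted carrier that releases FGFs from the matrix, was the main rise, by 1.47 and 1.59. Ncam1, a cell adhesion gene whose protein binds FGF receptors, fell by 1.04 in CHIR/XAV EpiSCs. Its means were 6.41 there, 7.26 in FGF2/activin EpiSCs and 7.46 in ESCs. Flrt3, which encodes a membrane partner of FGF receptors, stood at -0.57 in CHIR/XAV and -0.46 in FGF2/activin EpiSCs, and both its differences passed the test. In FGF2/activin EpiSCs the decoy receptor gene Fgfrl1 (-0.44) and the dim gene Flrt2 (-0.58) were also lower. Their means in CHIR/XAV EpiSCs, 6.53 and 4.37, lay below the ESC means of 6.82 and 4.81 as well. Cdh2 (N-cadherin) fell by 0.56 in CHIR/XAV EpiSCs and, named after its values were seen, was higher by 0.29 in FGF2/activin EpiSCs. Cdh2 (-0.84) and Ncam1 (-0.85) were lower in CHIR/XAV than in FGF2/activin EpiSCs, and Kl (0.22) and Fgfbp3 (0.28) were higher, of which 1 was called after median centring. Over all genes 21.1% were lower and 20.5% higher in that comparison.

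The adaptors and the RAS, RAF, MEK and ERK genes went both ways. Of 16 measured genes 4 rose and 6 fell in CHIR/XAV EpiSCs (5 and 5 after median centring, where the list's median was 0.0064 in place of -0.02), and 7 rose and 5 fell in FGF2/activin EpiSCs (9 and 5 after median centring), where 24.7% of all genes rose and 22.1% fell in CHIR/XAV and 27.8% rose and 33.5% fell in FGF2/activin EpiSCs. Gab1, a docking protein gene, had 7.76, 7.71 and 7.98 in CHIR/XAV EpiSCs, 8.79, 8.79 and 8.68 in FGF2/activin EpiSCs and 9.78, 9.81 and 9.66 in ESCs, an order shared with Fgfr2. Ksr1, a scaffold gene of the cascade, fell by 1.08 in both, and the adaptor gene Shc1 rose by 1.03 and 0.90. The RAS activator gene Sos1, down by 0.88 in FGF2/activin EpiSCs, averaged 8.57 in CHIR/XAV EpiSCs, 8.46 in FGF2/activin EpiSCs and 9.33 in ESCs. Braf, up by 0.86 in CHIR/XAV EpiSCs, averaged 10.19, 9.70 and 9.34 in the same order. Against FGF2/activin EpiSCs, 1 of the 16 was higher in CHIR/XAV EpiSCs, Braf by 0.50, and 7 were lower, led by Gab1 (-0.94), Araf (-0.47) and Sos2 (-0.43). Over all genes 20.5% were higher and 21.1% lower in that comparison. After quantile normalization the counts of the list were 3 higher and 3 lower.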

How the data were processed

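RNA of 9 samples was hybridised to single-colour microarrays. The deposited table gives 1 log2 value for each probe set on each array. The authors used RMA and Partek, per the submitters' processing notes, with versions not given in the sources used here. Of 35399 probe sets, 21789 carried 1 gene symbol in the platform annotation, 1621 several and 11989 none, and only those with 1 symbol were used. Symbols were updated by gene identifier to a RefSeq table of GRCm38.p6, used for names, chromosomes and gene order only (19856 of 19938 genes matched). For 999 genes with more than 1 probe set the brightest by mean was kept.

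Groups came from the sample titles. limma 3.58.1 under R 4.3.3 tested the differences, all 9 arrays in 1 fit without covariates or filter, with Benjamini-Hochberg adjustment over 19938 genes and a threshold of 0.05; intervals are 95% intervals from the moderated fit. The fit was tested on simulated data with known changes. The number of arrays limits the precision. The members, lists, motifs and rules were chosen with earlier results of these data known. Named genes are the 8 members, the 4 largest called differences of each pathway list, and the 3 genes nearest (Euclidean distance) to each member whose group means span at least 1 log2 unit; exceptions are marked. Alternatives were averaging over probe sets, a filter on dim genes, other scalings, another variance model and array weights. Further ones were replicate number as a block, 2 groups alone, a treat test against 1.5-fold and each array left out. Detection calls were not used here.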

Additional observations from a re-analysis of the deposited data

How the results depend on the processing

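Of 426 values of the 8 members under the alternatives, 385 kept their direction and their side of the threshold, 19 lost their call, 15 gained one and 7 changed sign. The 7 sign changes were all in differences that had no call. Fgf5 between the EpiSC cultures was 0.068 after quantile normalization and -0.074 to 0.0020 with 1 array left out, where the sign changed without FGF2/activin EpiSC replicate 1. Fgfr3 in CHIR/XAV EpiSCs against ESCs was -0.022 to 0.12 with 1 array left out, below 0 without CHIR/XAV EpiSC replicate 2, and in FGF2/activin EpiSCs against ESCs it was 0.058 after quantile normalization. Fgfr4 in FGF2/activin EpiSCs against ESCs was -0.0066 with array weights and -0.037 to 0.068 with 1 array left out, below 0 without ESC replicate 2 and without FGF2/activin EpiSC replicate 3. The cause was not tested. Each member has 1 probe set, so averaging over probe sets left its differences as they were by construction. Those unchanged values are counted among the 385. Leaving out the dimmest 40% of genes gave no value for Fgfr3 and Fgfr4. The treat test asks for more than 1.5-fold and so called fewer genes: 2241 in CHIR/XAV EpiSCs against ESCs, 2726 in FGF2/activin EpiSCs against ESCs and 1175 between the EpiSC cultures. In the same order it called 4, 4 and 0 members. Between the EpiSC cultures limma's treat gave 0 members at an unadjusted p under 0.05 too. The ordinary limma test called 4 there at an adjusted p under 0.05. Its unadjusted p was also under 0.05 for Fgf4 (0.039) and Fgfr4 (0.029). Members that lost their call under the treat test were Fgf15 and Fgfr4 in CHIR/XAV EpiSCs, Fgfr1 in FGF2/activin EpiSCs, and Fgf8, Fgf15, Fgfr1 and Fgfr2 between the EpiSC cultures. With each array left out, the members called numbered 5 to 6, 5 to 6 and 3 to 4, and the genes called 8438 to 9268, 10561 to 12416 and 6923 to 8418, in the same order of comparisons. Fgf5 and Fgfr2 against ESCs kept their calls under all 18 alternatives, with Fgf5 at 3.56 to 3.69 in both cultures and Fgfr2 at -2.47 to -2.35 in CHIR/XAV and -1.75 to -1.61 in FGF2/activin EpiSCs. Replicate numbers are not said to mark a shared batch, and same-numbered arrays deviated together with correlations of -0.07 to 0.24, so the numbers were not treated as pairs. With the replicate block the genes called were 9325, 12202 and 8246, and the members called 5, 5 and 4; the member lost was Fgfr4 in CHIR/XAV EpiSCs (adjusted p = 0.0584). Dim signal limits Fgfr3, Fgfr4, 11 of the 14 other secreted FGF genes, 3 of the 10 co-receptor and binding protein genes and the ESC values of Fgf5, where a fold change is understated if the dim group is at background.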

Other observations

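Of the 14 other secreted FGF genes, 11 had a mean over the arrays under 5.28 log2 units, the level under which the dimmest 40% of genes lie, and without detection calls differences among such values cannot be told from background. Fgf23, which encodes a hormone that bone makes to control phosphate, stood apart through its ESC level: it had 4.77, 4.66 and 4.86 in CHIR/XAV EpiSCs, 4.55, 4.72 and 4.63 in FGF2/activin EpiSCs and 6.27, 6.13 and 6.37 in ESCs. It fell by 1.49 (limma, adjusted p = 1.49e-09) in CHIR/XAV EpiSCs and fell by 1.63 (adjusted p = 4.21e-10) in FGF2/activin EpiSCs, and all ESC arrays lay above all EpiSC arrays. By limma 0 of the 14 rose in CHIR/XAV EpiSCs (1 at an unadjusted p under 0.05, and 1 after quantile normalization) and 3 fell (4 after quantile normalization), with Fgf1 at -0.34 and Fgf17 at -0.25, while 22.1% of all genes fell. In FGF2/activin EpiSCs 11 fell (7 after median centring and 4 after quantile normalization) and 0 rose (0 also at an unadjusted p under 0.05), while 33.5% of all genes fell, with Fgf17 (-0.49), Fgf1 (-0.48) and Fgf9 (-0.31) after Fgf23. The list median was -0.11 and -0.26, against -0.03 and -0.08 over all genes. Against FGF2/activin EpiSCs 5 were higher in CHIR/XAV (3 after quantile normalization), where 20.5% of all genes were, with Fgf20 at 0.47, Fgf21 at 0.32, Fgf22 at 0.30, Fgf3 at 0.25 and, named after its values were seen, Fgf17 at 0.24. Fgf3, Fgf20 and Fgf21 are among the 11 dim genes.

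The intracellular FGF homologues, which bind sodium channels and do not act as secreted ligands, were higher in EpiSCs in part. Of the 4, Fgf14 rose by 1.17 in CHIR/XAV and 0.85 in FGF2/activin EpiSCs and Fgf13 by 0.62 and 0.48. Fgf11 averaged 6.46 in CHIR/XAV EpiSCs, 5.59 in FGF2/activin EpiSCs and 5.61 in ESCs, and was higher by 0.88 in CHIR/XAV than in FGF2/activin EpiSCs (adjusted p = 8.73e-07). Fgf14 was higher by 0.32 in the same comparison. Fgf14 and Fgf12 are dim by the same measure, and Fgf12 was not called in any comparison.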
